A study of Homo sapiens with 2 samples.

Results

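Open chromatin at 47 genes of interferon signalling and antiviral defence was examined in untreated B2B cells, out of 20007 protein-coding genes of the annotation. The genes were listed by name and not by their signal, though with earlier results of these data known. They fall into 23 signalling and sensor genes and 24 effector genes that interferon induces. For every gene the transcription start site (TSS) of the GENCODE canonical transcript was taken, and the peaks of each replicate within 1 kb (promoter peaks) and within 20 kb of it were read. B2B, or BEAS-2B, is an immortalized, non-cancerous line of human bronchial epithelial cells of wild-type genotype, and its chromatin was profiled in 2 biological replicates by ATAC-seq, an assay that reads where a transposase (Tn5) can cut and tag the DNA. A single line at rest is no model of the airway lining as a whole, and no sample given interferon or virus was analysed here. With 1 condition there were no groups to compare, so the values below are descriptions without tests.

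Interferons are secreted proteins that warn cells of a virus. Sensors of foreign RNA or DNA, such as RIG-I (gene RIGI), MDA5 (gene IFIH1) and cGAS, act through the adaptors MAVS and STING and the kinase TBK1 to switch on interferon genes. Secreted interferon then binds its receptor, the JAK kinases phosphorylate STAT factors, and STAT2 with IRF9 binds the interferon-stimulated response element (ISRE) in front of many effector genes, whose products block viral entry, translation or replication. Airway epithelium is the first tissue that many respiratory viruses reach, and it makes and answers both type I and type III interferon.

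The peak lists held 28735 peaks in replicate 1 and 36162 in replicate 2 on the autosomes and sex chromosomes. The fold enrichment of a peak is the number of fragments at its summit over the local background, each with 1 added, and its median was 6.06 in replicate 1 and 6.57 in replicate 2. The median summit held 35 and 30 fragments, and no listed peak held fewer than 16 and 13. A TSS without a peak was therefore under the detection limit, which does not make it closed. In a bulk sample, a weak peak in all cells and a strong peak in few cells cannot be told apart. As a check of the label, a promoter peak in both replicates was present at 1 of 12 epithelial marker genes (KRT18), at 9 of 12 mesenchymal ones and at 1 of 10 leukocyte ones (CD14, at 5.72 and 7.48). The epithelial markers CDH1 and EPCAM had none, so the epithelial label is not borne out by these markers.

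The ISRE was searched as GAAA and GAAA with any 2 bases between them, on both strands in the 300 bases before the TSS. The sequences that carry it are shown here because most of the effector genes share this element while differing in whether a peak lay over it. RefSeq promoter sequences of GRCh38.p14 were at hand for 35 of the 47 genes. Of the 9 genes with an ISRE and a promoter peak in both replicates, the first set holds 7, followed by IFNL1, which had an ISRE and no peak. The other two are not shown, IFNGR1 because its match reaches past the end of its RefSeq sequence, and IRF2 because it was not among the 35. Each stretch reads 5′ to 3′ on the strand of its gene, with the ISRE matches in capitals. The first are IFIH1 at chr2:162318685-162318873 on the minus strand, IFIT1 at chr10:89392477-89392559 on the plus strand, IFIT5 at chr10:89414493-89414567 on the plus strand, ISG15 at chr1:1013354-1013429 on the plus strand.
IFIH1: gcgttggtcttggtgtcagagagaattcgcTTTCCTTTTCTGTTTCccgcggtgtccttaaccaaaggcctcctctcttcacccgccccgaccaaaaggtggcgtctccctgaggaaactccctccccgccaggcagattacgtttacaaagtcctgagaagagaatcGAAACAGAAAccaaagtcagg
IFIT1: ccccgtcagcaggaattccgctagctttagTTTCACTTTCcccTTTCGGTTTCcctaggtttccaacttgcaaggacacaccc
IFIT5: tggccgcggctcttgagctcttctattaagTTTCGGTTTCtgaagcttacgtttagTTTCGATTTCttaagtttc
ISG15: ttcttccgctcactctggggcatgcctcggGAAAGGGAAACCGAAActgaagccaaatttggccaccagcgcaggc
The next are OAS3 at chr12:112938301-112938473 on the plus strand, ISG20 at chr15:88638917-88638986 on the plus strand, IFI6 at chr1:27672246-27672378 on the minus strand, IFNL1 at chr19:39296163-39296238 on the plus strand.
OAS3: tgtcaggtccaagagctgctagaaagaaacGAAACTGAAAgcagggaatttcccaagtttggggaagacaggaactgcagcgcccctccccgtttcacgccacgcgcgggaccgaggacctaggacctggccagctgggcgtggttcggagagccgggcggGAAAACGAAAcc
ISG20: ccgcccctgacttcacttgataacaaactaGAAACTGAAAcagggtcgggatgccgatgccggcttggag
IFI6: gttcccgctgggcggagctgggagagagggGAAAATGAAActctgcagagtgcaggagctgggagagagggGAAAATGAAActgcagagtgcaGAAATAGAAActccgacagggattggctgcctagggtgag
IFNL1: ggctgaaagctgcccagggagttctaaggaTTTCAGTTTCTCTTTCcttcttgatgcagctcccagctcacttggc
A further pair was picked after its values were seen, as a contrast. It holds an ISRE in front of an effector gene whose peak lay beside it, in replicate 2 alone (IFIT3), and one in front of an effector gene without a promoter peak (BST2). They are IFIT3 at chr10:89327811-89327914 on the plus strand and BST2 at chr19:17405715-17405790 on the minus strand.
IFIT3: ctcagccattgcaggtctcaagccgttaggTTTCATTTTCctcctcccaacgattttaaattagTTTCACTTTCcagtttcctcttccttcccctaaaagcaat
BST2: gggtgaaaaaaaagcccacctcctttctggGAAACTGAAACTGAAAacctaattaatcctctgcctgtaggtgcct

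Across the 47 genes, 23 (48.9%) had a promoter peak in both replicates, close to the 52.3% of all protein-coding genes. Replicate 1 had a promoter peak at 24 genes and replicate 2 at 28, against 53.2% and 58% of all genes. One gene (IFNAR2) had it in replicate 1 only, 5 genes (IRF3, IRF9, IFIT2, IFIT3 and IFITM3) in replicate 2 only, and 18 in neither, against 0.955%, 5.74% and 41% of all genes. The near-average share hid a split between the classes. Both promoter peaks were present at 16 of the 23 signalling and sensor genes (69.6%), but at 7 of the 24 effector genes (29.2%). Replicate 1 alone gave 17 and 7 genes, and replicate 2 alone gave 18 and 10. Over the 16 signalling and sensor genes with both peaks, median enrichments of 7.45 (replicate 1) and 9.98 (replicate 2) were found. The 7 effector genes had medians of 6.58 and 7.02, and all genes with both had 8.14 and 9.64. By the mean of the replicates per gene, the medians were 8.80, 6.69 and 8.91 in this order.

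**Figure D1:**
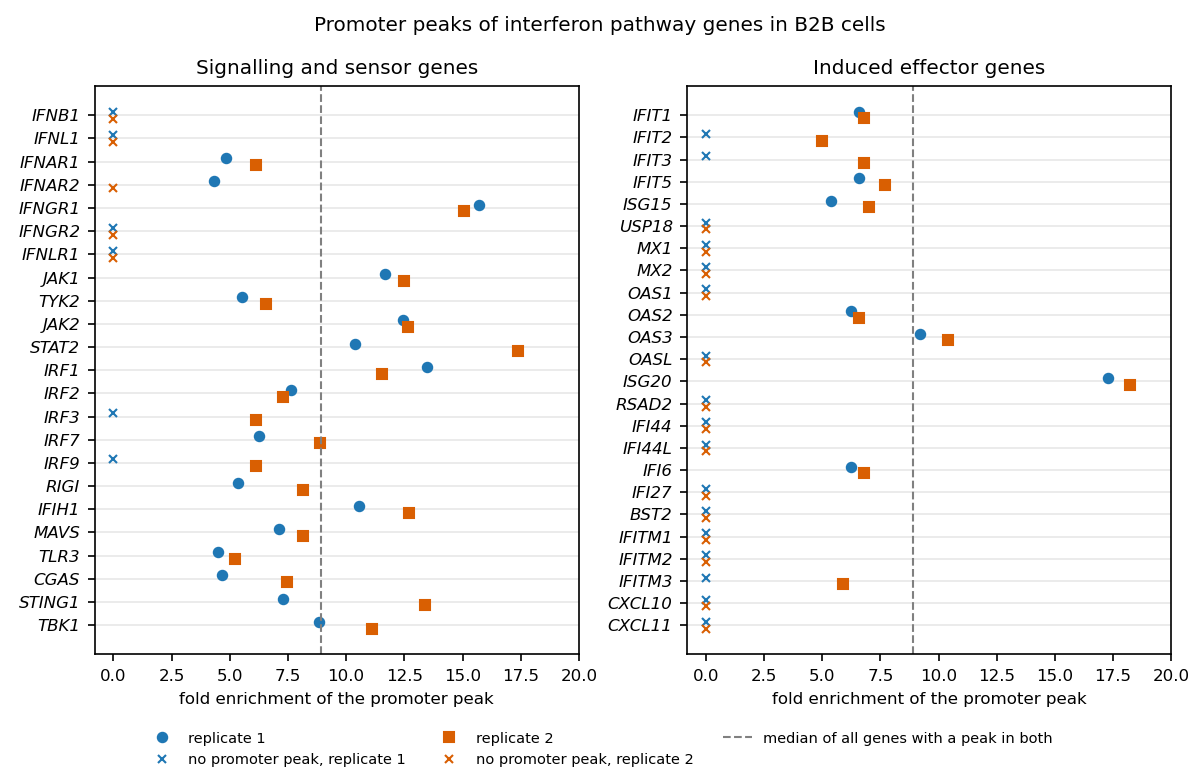
Fold enrichment of the promoter peak (x axis, a ratio) of each of the 47 genes in replicate 1 (circles) and replicate 2 (squares), with a cross where there was no promoter peak, and a dashed line at the median of all genes with a peak in both (8.91). All 7 sensors and adaptors and all 3 kinases have both points, whereas 14 of the 24 effector genes have 2 crosses, and ISG20 stands highest at 17.3 and 18.2.

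The ligands in the list had no promoter peak in either replicate. IFNB1, the interferon-β gene that infected cells switch on first, had its nearest peak 7.40 kb downstream of the TSS in replicate 1 and 7.45 kb in replicate 2. This intergenic peak (chr9:21070183-21070546 in replicate 1) had a fold enrichment of 7.1 and 10.2, with 40 and 44 fragments at the summit, and 2 AP-1 matches within 100 bp of its summit. IFNL1, a type III interferon that acts mainly on epithelia, had no peak within 20 kb, and the nearest lay 45.5 and 45.4 kb away.

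The receptor genes were unequal. IFNGR1, the ligand-binding chain of the interferon-γ receptor, had 15.7 in replicate 1 and 15.1 in replicate 2 at its TSS (chr6:137219013-137219658 in replicate 1), with 116 and 95 fragments. Its mean of 15.4 ± 0.454 (SD, n = 2) was above that of 90.0% of the promoters with a peak in both replicates. A weaker peak in an intron, at +573 and +584 bp, had 6.10 and 5.23. IFNAR1, a chain of the type I receptor, was among the weakest members at 4.85 and 6.12, on 27 and 26 fragments. IFNAR2, the other type I chain, had 4.33 in replicate 1 on 24 fragments, and its nearest peak in replicate 2 lay 29.9 kb away. Its TSS is shared within 1 kb with that of the readthrough gene IFNAR2-IL10RB. IFNGR2, the signal-transducing chain of the interferon-γ receptor, had no promoter peak although 104 CpG lay within 500 bp of its TSS. Its nearest peak (chr21:33395848-33396273 in replicate 2) was intergenic, 7.24 and 7.14 kb upstream, and measured 4.68 and 11.6, so it was the stronger in replicate 2. IFNLR1, the chain specific to type III interferon, had no peak within 20 kb, with the nearest at 79.1 and 36.6 kb. At both type III genes, ligand and receptor, no peak was thus detected within 20 kb in either replicate.

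Each of the 3 receptor-bound kinase genes had both promoter peaks. JAK2, which serves the interferon-γ receptor, had 12.4 and 12.7 and held the most fragments of any promoter peak of the 47 genes, 154 and 131. Its summit lay upstream, at -446 and -415 bp. JAK1, which serves all 3 interferon types, had 11.7 and 12.5 at its TSS and a further peak of 9.01 and 11.6 at -16697 and -16761 bp. Another peak, of 5.54 and 7.48, lay within 1 kb of several other annotated starts of JAK1, which run from -101065 to -101205 bp. TYK2, the partner of JAK1 at the type I receptor, was weaker at 5.54 and 6.57.

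Among the transcription factors, STAT2, the DNA-binding complex partner specific to type I and III signalling, had 10.4 and 17.4, a mean of 13.9 ± 4.93 (SD, n = 2) and the largest spread between replicates of the 23 genes with both. IRF1, an interferon-γ-induced activator, had 13.5 and 11.5, with 109 and 104 fragments, and a smaller peak in its gene body of 4.67 and 6.83. IRF2, which binds the same element and often opposes IRF1, had 7.63 and 7.27. IRF7, the amplifier of type I interferon genes, had 6.24 and 8.86. IRF3, the factor that TBK1 phosphorylates, had a promoter peak in replicate 2 only, at 6.12 on 26 fragments, and this peak lay also within 1 kb of the TSS of BCL2L12. IRF9, the DNA-reading subunit beside STAT2, likewise had 6.12 on 26 fragments in replicate 2 only. The nearest peaks in replicate 1 lay 10.9 kb from IRF3 and 13.7 kb from IRF9. Of STAT2 and IRF9, which act in 1 complex, the first thus had the highest mean of the factors and the other a weak peak in 1 replicate.

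Each of the 7 sensors, adaptors and their kinase had both promoter peaks, and all 7 were higher in replicate 2. MDA5 (IFIH1), a sensor of long double-stranded RNA, was the strongest of them with 10.6 and 12.7. TBK1, the kinase on which the sensors converge, had 8.84 and 11.1, and MAVS, the mitochondrial adaptor of the RNA sensors, had 7.1 and 8.16. RIGI, which detects short RNA with a 5′ triphosphate, had 5.37 and 8.16. CGAS, the cytosolic DNA sensor, had 4.68 and 7.48. STING1, its adaptor, had 7.28 and 13.4, a mean of 10.3 ± 4.31 (SD, n = 2), at a summit inside the gene at +482 and +424 bp. TLR3, the endosomal RNA sensor, was the weakest at 4.5 and 5.21, and its summits lay at -943 and -970 bp, at the edge of the window, so with a window of 500 bp it had no promoter peak. For the genes in this role the order by mean was IFIH1, STING1, TBK1, MAVS, RIGI, CGAS and TLR3, and neighbours in this order other than TBK1 and MAVS differed by less than the larger of their SDs between replicates. IRF1 and STING1 lie on chromosome 5 beyond 80 Mb, where the median summit of all peaks held 42 and 37 fragments against 35 and 30 elsewhere. The part of this in their values was not tested.

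The effector genes had fewer and weaker promoter peaks. ISG20, an RNA exonuclease, was the exception and the strongest of all 47 genes. It had 17.3 in replicate 1 and 18.2 in replicate 2 (chr15:88638562-88639125 in replicate 1) on 99 and 101 fragments, and its mean of 17.7 ± 0.670 (SD, n = 2) was above that of 95.3% of promoters with a peak in both. OAS3, an enzyme that makes the 2-5A messenger which activates RNase L, followed at 9.18 and 10.4, above 58.0% of them. The other 5 effector genes with both peaks lay within a narrow range of low values, from the 20.4th to the 31.8th percentile. Of these, IFIT5 had 6.58 and 7.70 and IFIT1 had 6.58 and 6.80, both RNA-binding proteins that recognise foreign 5′ ends. IFI6, a small membrane protein, had 6.24 and 6.80, and OAS2, a paralogue of OAS3, had 6.24 and 6.57. ISG15, a ubiquitin-like modifier, had 5.37 and 7.02. All 7 were higher in replicate 2, as were 71.5% of all genes with both peaks.

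A further 3 effector genes had a promoter peak in replicate 2 only, all of them weak. IFIT3 had 6.80 on 29 fragments, IFITM3, which restricts viral entry at endosomes, had 5.89 on 25, and IFIT2 had 4.98 on 21. With equal numbers of the strongest peaks from each list, that of IFIT2 was lost. In replicate 1 the nearest peaks lay 24.0 kb from IFIT3, 35.1 kb from IFITM3 and 49.9 kb from IFIT2. The IFIT genes and the IFITM genes have close copies, and how reads that map to several places were handled is not given in the sources used here.

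The 14 effector genes with no promoter peak in either replicate included several of the best-known markers of an interferon response. Of these, 6 had no peak within 20 kb in either replicate. They were RSAD2 (viperin, which makes a chain-terminating nucleotide) with the nearest peak at 830.03 and 829.95 kb, IFI44 at 157.8 and 65.4 kb, IFI44L at 128.4 and 94.8 kb, OASL at 85.3 and 22.7 kb, the chemokine gene CXCL10 at 32.5 and 28.1 kb, and OAS1 at 31.3 kb in both. Another 4 had a peak within 20 kb in replicate 2 alone. For MX2 it was an intronic peak of 3.62 on 15 fragments, and for CXCL11 an intergenic peak of 4.98 on 21 fragments 15.5 kb upstream. For IFITM1 and IFITM2 it was the promoter peak of IFITM3, which lies within their windows, so a single peak lay within the windows of 3 genes of the cluster.

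The remaining 4 effector genes, USP18, MX1, IFI27 and BST2, had peaks within 20 kb in both replicates but not at the TSS. USP18, the protease that removes ISG15, had an intronic peak of 5.02 and 7.48 with summits at +7353 and +7201 bp. MX1, a GTPase that traps viral nucleoproteins, had a peak of 3.98 and 8.38 on 22 and 36 fragments (chr21:41420242-41420730 in replicate 2). Its summit lay at -5707 and -5692 bp from the canonical TSS, among other annotated starts of MX1, and an ISRE lay within 100 bp of the summit. Counted at any annotated TSS, MX1 had both promoter peaks, and the class had 8 such genes, against 56.2% of all genes. IFI27 had an intronic peak of the neighbouring IFI27L1 of 6.41 and 7.48 nearest, and the strong promoter peak of IFI27L2 of 17.5 and 18 at +18841 and +18894 bp. BST2, or tetherin, which holds budding virions at the cell surface, had an intronic peak of CCDC194 of 5.37 and 4.98 and the promoter peak of MVB12A of 5.54 and 6.12. None of these 4 genes had a peak between 1 and 5 kb of its canonical TSS.

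The gene clusters were not uniform. On chromosome 10, IFIT2, IFIT3, IFIT1 and IFIT5 follow each other with 26.0, 64.6 and 21.9 kb between their starts, and IFIT1 and IFIT5 had peaks in both replicates whereas IFIT2 and IFIT3 had them in replicate 2. On chromosome 12, OAS1, OAS3 and OAS2 follow at 31.5 and 40.0 kb, and OAS1 alone of the 3 had no peak within 20 kb. The neighbouring IFI44L and IFI44, 29.4 kb apart, and CXCL10 and CXCL11, 12.6 kb apart, had no promoter peak in either replicate.

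The classes also differed in the CpG content of their promoters, a property of sequence that the lists did not use. The median CpG count within 500 bp of the TSS was 68 for the signalling and sensor genes, 21 for the effector genes and 66 for all genes. When all genes were split in 3 classes of like size by this count, 13.5% of those with 0 to 47 CpG had a promoter peak in both replicates, 69.2% of those with 48 to 82, and 74.2% of those with 83 to 207. Of the effector genes 20 fell in the lowest class and 4 in the middle class, and 5 of the 20 (25.0%) and 2 of the 4 had both promoter peaks. Of the signalling and sensor genes, 6 fell in the lowest class, 9 in the middle and 8 in the highest, and 3, 7 and 6 of these had one. The 3 with a promoter peak in the lowest class were RIGI, with 43 CpG, STING1, with 21, and TLR3, with 10. In the middle and highest classes, 6 of the 47 genes did not have both promoter peaks, and these were IFNGR2, IFNAR2 and IFNLR1, with 104, 94 and 80 CpG, MX1, with 76, IRF3, with 58, and USP18, with 49. The part of CpG content in the split between the classes was not tested.

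**Figure D2:**
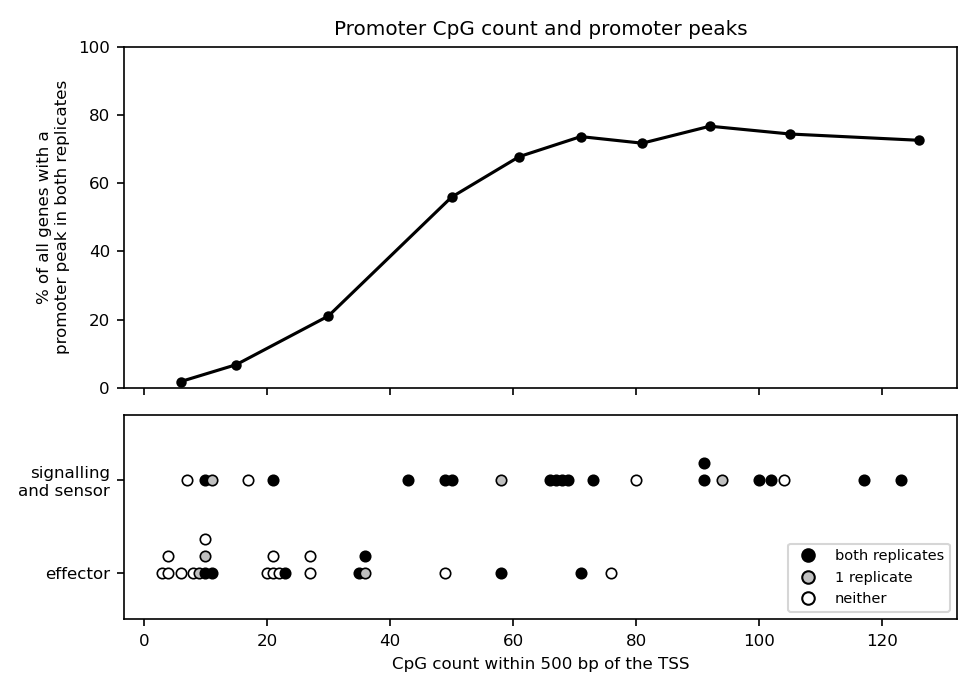
The upper plot gives the percent of all genes with a promoter peak in both replicates (y axis) in 10 groups of genes by CpG count within 500 bp of the TSS (x axis). The lower plot places each of the 47 genes at its CpG count, filled where a promoter peak was present in both replicates, grey in 1 replicate and open in neither, and 20 of the 24 effector genes lie at 47 CpG or fewer.

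The ISRE was common in front of the effector genes. At least 1 match lay in the 300 bases before the TSS of 17 of 24 effector genes (70.8%) and of 4 of 23 signalling and sensor genes (17.4%; IFNL1, IFNGR1, IRF2 and IFIH1), against 3.45% of all promoters. IFI6 and IFIH1 had 3 matches each. In 4 genes (ISG15, IFNL1, BST2 and IFIH1, all shown above) 2 matches shared bases. The STAT dimer element (GAS), spelled TTCNNNGAA, was found in 5 effector and 7 signalling and sensor genes, against 7.11% of all promoters, and 2 of its 14 matches overlapped an ISRE. The AP-1 element, spelled TGANTCA, overlapped no ISRE and was found in 5 effector genes (MX1, MX2, OAS2, ISG20 and CXCL11) and in 0 of 23 signalling and sensor genes, against 5.75%. In the 20 effector genes of the lowest CpG class the shares with an ISRE, a GAS and an AP-1 element were 70%, 25% and 20%. Among all genes of that class they were 5.91%, 10.3% and 10.8%. All of these are matches of letters in a window and say nothing of binding.

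Most effector genes with an ISRE lacked a promoter peak in at least 1 replicate. Of the 17 effector genes with an ISRE 6 (35.3%) had both promoter peaks, and among all genes with an ISRE the share was 37.5%. Of the 7 effector genes without one, OAS2 alone did. The 35.3% and 37.5% are not matched for CpG content, as 14 of the 17 were in the lowest CpG class, against 395 of 691. Of these 14, only IFIT1, ISG15, ISG20 and IFI6 had both promoter peaks. Among all genes of the lowest CpG class the share was 14.9% with an ISRE and 13.5% without. With an ISRE it was 64.7% in the middle class and 74.2% in the highest. Where both were present among the listed genes, the peak mostly lay over the element. In replicate 1 the promoter peak covered an ISRE at 9 of 9 genes that had both, and in replicate 2 at 9 of 12. The exceptions were IFIT2, IFIT3 and IFIT5, whose replicate 2 peaks began close to or downstream of the TSS and left both matches outside. The search window adjoins the TSS, and most promoter peaks of the listed genes lay close to it. Their summits were within 200 bp of the TSS at 18 of 24 genes in replicate 1 and 22 of 28 in replicate 2. Coverage was not computed for all genes, so whether it was higher at the listed genes was not tested.

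The distance from the centre of the closest ISRE to the summit, computed for the 47 genes only, was small at the strongest effector promoter. At ISG20 it was 14 bp in replicate 1 and 0 bp in replicate 2, so the single match shown in capitals above lay under the summit. At IFI6 it was 15 and 13 bp, at ISG15 5 and 31 bp, and at OAS3 39 bp in both. IFIT1 had 39 and 72 bp. For the replicate 2 peak of IFITM3 the distance was 4 bp. IFIH1 had 63 and 24 bp, and IRF2 had 78 and 72 bp. It was over 200 bp in both replicates at IFNGR1 (213 and 254 bp) and IFIT5 (284 and 207 bp). Of the 36 regions that the promoter peaks of the 47 genes merged into, 8 held an ISRE within 100 bp of the summit, beside 1.2% and 1.32% of all promoter peaks in replicates 1 and 2.

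**Figure D3:**
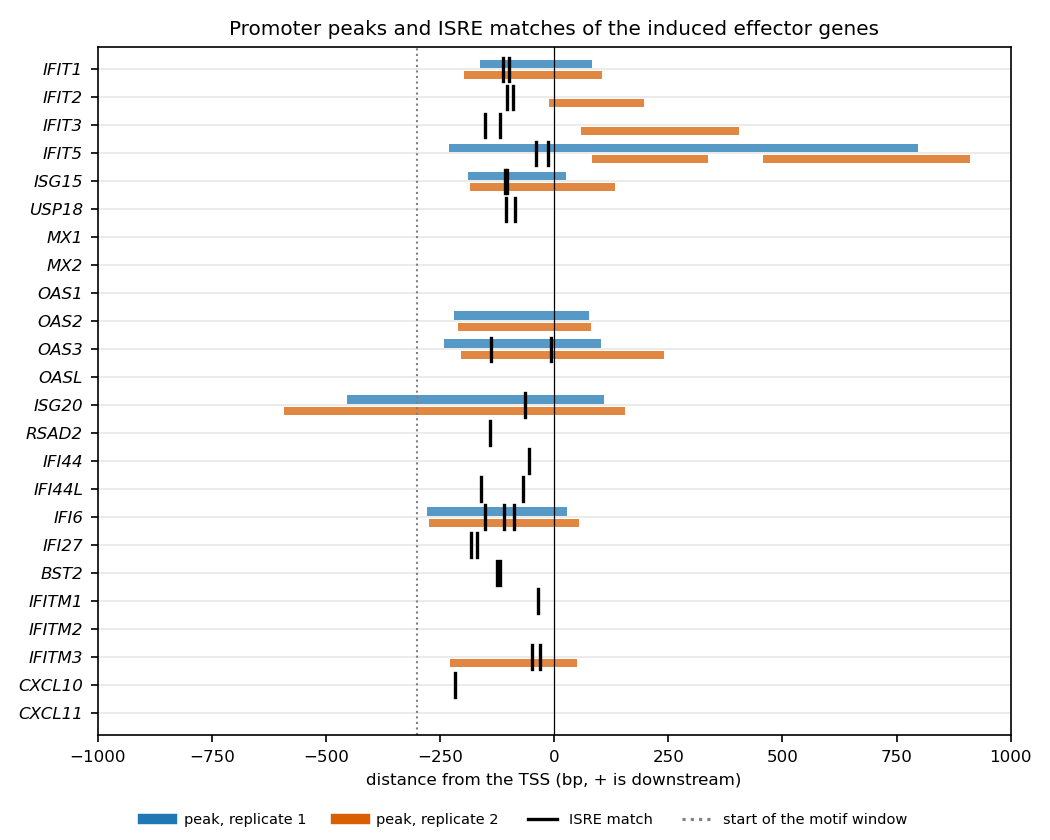
Promoter peaks of the 24 effector genes in replicate 1 (blue bars) and replicate 2 (orange bars) against the distance from the TSS in bp (x axis, positive is downstream), with ISRE matches as black lines and the start of the 300-base search window dotted. At IFIT1, ISG15, OAS3, ISG20 and IFI6 the bars of both replicates span the matches, and at 8 genes from USP18 to CXCL10 matches stand without any bar.

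Within 20 kb of the TSS, 31 of the 47 genes (66.0%) had a peak in both replicates, against 67.6% of all genes. These were 20 signalling and sensor genes (87.0%) and 11 effector genes (45.8%). In replicate 1 alone the effector count was 11 of 24, against 68.4% of all genes, and in replicate 2 alone it was 18 of 24, against 73.7%. The low effector share within 20 kb was thus seen in replicate 1 and not in replicate 2. Peaks further than 1 kb from the canonical TSS of every protein-coding gene, called distal here although some lie at other annotated starts, were found in both replicates near 12 genes (25.5%), 6 of each class, against 20.8% of all genes. The classes thus had equal numbers of genes with a distal peak, unlike at the promoter.

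All peaks within 20 kb merged into 71 regions, of which 36 were promoters of the listed genes, 11 promoters of other genes and 24 distal. Of the distal regions 15 had a peak in both replicates and 9 in replicate 2 only. Among those in both replicates 9 were intronic and 6 intergenic. The richest locus was IRF1, with 4 distal peaks in each replicate upstream of its TSS, within introns of ENSG00000283782. An annotated start of IRF1 itself, at -5694 bp, lies inside the nearest of them and within 1 kb of the next, so these are distal to the canonical TSS only. The 3 nearer ones measured 6.48 and 5.54, 5.33 and 5.21, and 6.17 and 5.36. The farthest (chr5:132505755-132506381 in replicate 2), at -15462 and -15463 bp, was the strongest at 9.53 and 11.6. One of the 4 held an ISRE within 100 bp of its summit.

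At the other loci there were fewer. IFNGR1 had one of 5.37 and 8.84 at -18178 and -18234 bp, and IRF2 had an intronic one of 6.35 and 6.49 at +1388 and +1497 bp, within 1 kb of another of its annotated starts. ISG20 had one of 4.85 and 5.21 at -15758 and -15812 bp, inside AEN, and IFI6 had one of 4.85 and 5.66 at +12054 and +12089 bp. Replicate 2 held a second distal peak near each, of 4.76 at +10399 bp for ISG20 and of 4.98 at +13173 bp for IFI6. Near ISG15 it held 2, of 3.5 and 4.25. TBK1 and IFIT3 had an intronic peak in replicate 2 only, of 8.38 and 7.25. Of the 24 distal regions 12 (50%) held an AP-1 match within 100 bp of the summit, beside 38.6% and 38.1% of all distal peaks. Of the 15 with a peak in both replicates 6 held one, near these shares. They lay at IFNB1, IFNGR2, JAK1, USP18, ISG20 and IFI27. In the 36 promoter regions 5 had an AP-1 match, beside 3.63% and 3.96% of promoter peaks, and 4 had a GAS, beside 3.22% and 3.27%. An ISRE lay at 2 distal regions, those of MX1 and IRF1, beside 2.12% and 2.23% of distal peaks, and a GAS at 2, beside 6.69% and 6.81%.

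**Figure D4:**
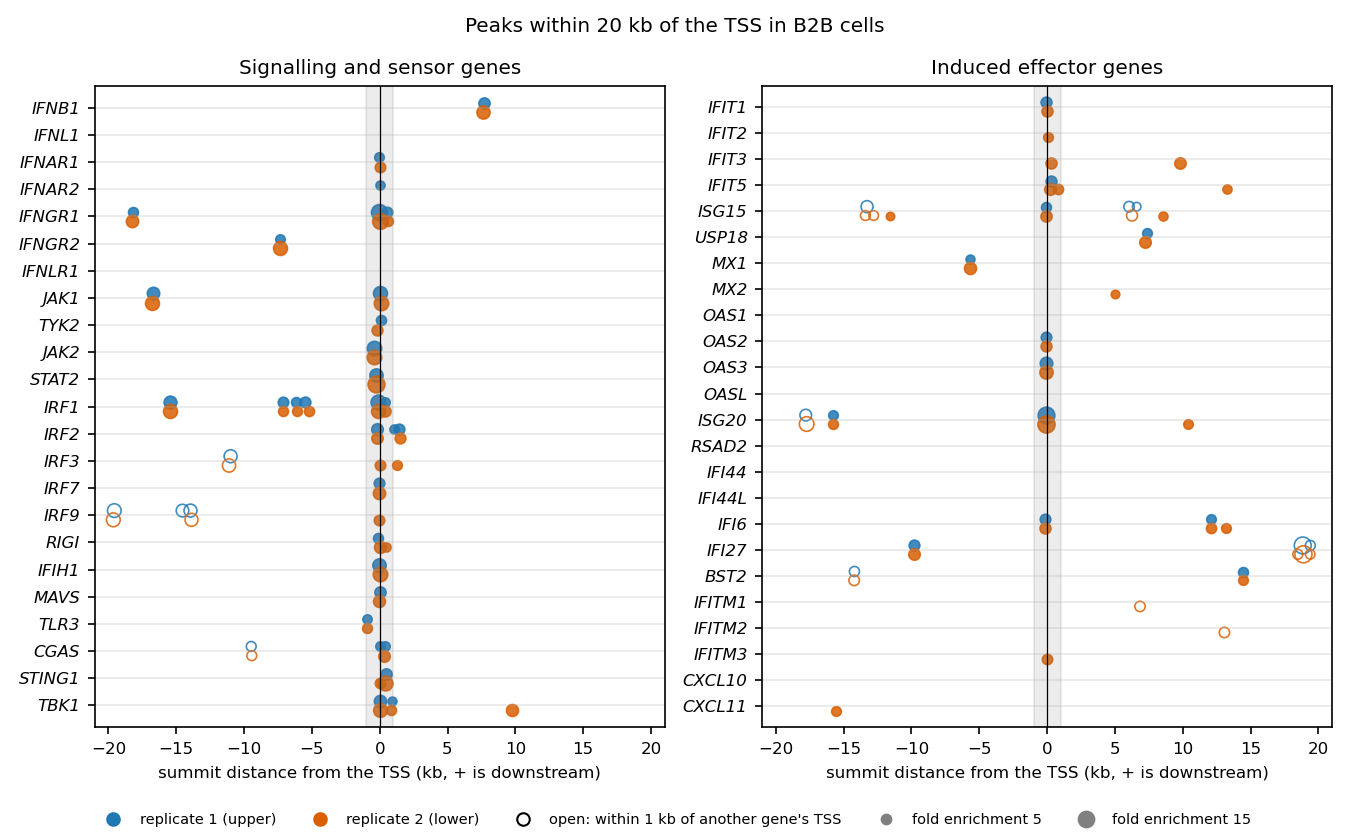
Summits of all peaks within 20 kb of the TSS of each of the 47 genes (x axis, distance in kb, positive is downstream; grey band, 1 kb to either side), blue for replicate 1 and orange for replicate 2, with the area of a circle growing with fold enrichment and open circles for peaks within 1 kb of another gene's TSS. The signalling and sensor genes form a nearly filled column at the TSS, the effector genes a broken one, and 8 genes have no circle at all. Among all 20007 genes, 5090 had no peak within 20 kb in either replicate.

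Other genes of the pathway, listed apart, showed how far the low effector share extended. Both promoter peaks were present at 21 of 40 other signalling genes (52.5%), and at 32 of 55 other interferon-induced genes (58.2%). Both shares were near the 52.3% of all genes, so the other induced genes did not have the low share of the 24. The 2 lists of induced genes differ in CpG content, with a median count of 41 for the 55 and 21 for the 24. In the lowest CpG class 11 of 29 and 5 of 20 had both promoter peaks, beside 13.5% of all genes of that class. The part of CpG content in this difference was not tested. The strongest other signalling genes were IRAK4, a kinase of Toll-like receptor signalling (15.9 and 16.6), TRAF6, a ubiquitin ligase of the same route (8.66 and 13.9), and AZI2, an adaptor of TBK1 (11.8 and 10.3). The strongest other induced genes were TRIM5, a restriction factor of retroviral capsids (21 and 20.2), PLSCR1, a phospholipid scramblase (14.9 and 16.4), and SAMHD1, which depletes nucleotides (10.9 and 19.3). A promoter peak in replicate 2 only was found at RNF135, IL10RB, DHX58 and STAT4 among the signalling genes and at GBP2, SAMD9, EPSTI1, GBP3 and SHFL among the induced ones, and in replicate 1 only at APOBEC3G (4.16). By the mean of the replicates per gene, the median fold enrichment was 6.06 for the 21 other signalling genes with both promoter peaks. It was 9.11 for the 32 other induced genes with both.

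Between the replicates, 20 of the 23 genes with both promoter peaks were higher in replicate 2, against 71.5% of all genes, with a median ratio of replicate 2 to replicate 1 of 1.16 against 1.14. The exceptions were IFNGR1, IRF1 and IRF2. The smallest spread of the named values was that of IFIT1, at 6.69 ± 0.151 (SD, n = 2). The peaks in replicate 2 only held 21 to 29 fragments, whereas 1% of the peaks of replicate 1 held fewer than 19. The promoter peaks of these 5 genes, and that of IFNAR2, rest on 1 replicate.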

How the data were processed

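ATAC-seq peak lists of 2 biological replicates of untreated B2B cells were analysed. The labels do not say whether the replicates were separate cultures, so SDs may be technical. The authors mapped reads to hg38 with Bowtie2 2.4.4, dropped duplicates by a script of their own and ran MACS2 2.2.7.1 on each replicate, keeping all remaining reads. Per the labels SAMtools 1.13 was also used. The deposited lists give a fold enrichment (a ratio with 1 added to both terms), a −log10 p and a −log10 q per peak, and a score, which was not used. Tn5 shift, q limit, read totals and the handling of reads mapping to several places are not given in the sources used here.

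From these files, the fragments under a summit were derived from its fold enrichment and −log10 p, with whole numbers found within 0.01 of the −log10 p for 99.7% and 99.8% of peaks. Canonical TSSs were taken from GENCODE 44, 1 per symbol. A promoter peak overlaps 1 kb to either side of the TSS by at least 1 bp, and the highest was used per gene and replicate. Intron and intergenic are by canonical transcripts, at the summit. CpG and motifs were read from hg38 and printed sequences from RefSeq, GRCh38.p14. The steps were tested on simulated data, which recovered 1000 of 1000 pileups, 500 of 500 windows and 300 of 300 motifs. Python 3.11.15, numpy 2.4.6, pandas 2.3.3, scipy 1.17.1, pysam 0.24.0 and matplotlib 3.10.9 were used.

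All listed genes are named, with values for those with a promoter peak in either replicate and the nearest peak for the rest. Of the other pathway genes, the 3 highest by mean per list and those with a peak in 1 replicate are named. The members and all lists were chosen with earlier results of these data known. Alternatives were any annotated TSS, equal numbers of strongest peaks, a minimum −log10 q of 5, each replicate alone, other windows and motif spellings, and summits in place of overlap.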

Additional observations from a re-analysis of the deposited data

How the results depend on the processing

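The signalling and sensor genes had more promoter peaks in both replicates than the effector genes under every alternative run for that count. Most recomputed summary values, 65, were taken as unchanged, and 9 as moved. A count was unchanged within 1.5 times the main value, and a median fold enrichment if it differed by less than the SD between replicates. A median CpG count was unchanged only if equal. Leaving out each replicate in turn gave 17 to 18 signalling and sensor genes and 7 to 10 effector genes with a promoter peak, and 11 to 18 effector genes with a peak within 20 kb, the 18 without replicate 1 (73.7% of all genes). Within 50 kb the last count was 19 of 24, against 79.8% of all genes, so the effector share was no longer low there. With distal peaks only it was 6 in either class, against 20.8%. The signalling and sensor genes with an ISRE numbered 7 within 500 bases of the TSS on either side, 2 when a C had to follow the element and 13 when any annotated TSS counted, against 9.97%, 0.7% and 15.4% of all genes. Within 250 bp of the TSS the median CpG count was 10.5 for effector and 42 for signalling and sensor genes, beside 40 for all genes. By gene, MX1 gained a promoter peak at any annotated TSS, IFIT2 lost its peak with equal numbers of the strongest peaks and TLR3 with a window of 500 bp. No paired analysis was possible because there was 1 condition.

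The weakest listed summits held 16 and 13 fragments, so missing peaks do not show closed chromatin. With 2 replicates an SD is itself uncertain. Windows of clustered genes overlap and share peaks, and nearness does not tie a distal peak to a gene.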
